A study of Homo sapiens with 17 samples.

Results

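HERV-F and HERVH48 are families of human endogenous retroviruses related to HERVH. All annotated repeats whose subfamily name begins with HERV-Fc, HERVFH, HERVH48 or LTR21 were taken, which gave 453 of the 3594049 loci and 12 of the 1080 subfamilies in the deposited table. Reads fell on 368 of these loci, and 85 were at 0 in all libraries. Only 67 loci and 10 subfamilies had enough reads to be tested, and a locus that passed the read filter through a single high group had to differ, so the counts below are not counts over all 453. The set was chosen by subfamily name after the levels of HERV-Fc1-int, HERV-Fc2-int and HERVH48-int in the pull-downs had been seen, so these values selected on the outcome. Their differences in all comparisons, copies included, are therefore given with their error, as description and without a p-value, since total RNA was set against the same pull-down libraries. The LTRs of the proviruses that hold most reads of HERV-Fc1-int and HERVH48-int are treated alike.

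The samples came from N2102Ep, an established human embryonal carcinoma line. RNA was sequenced after immunoprecipitation of ORF1p (4 libraries) or ORF2p (4 libraries), the 2 proteins encoded by the LINE-1 retrotransposon, after a mock immunoprecipitation that the labels mark mIgG (3 libraries), and without pull-down (total RNA, 6 libraries). The labels give the cells of the last 3 groups as clone 2/A6, a single clone, and those of the ORF1p pull-down by the line's name only; they give no further treatment or genotype. The comparisons asked which RNAs were higher or lower with each protein than in the mock pull-down and in total RNA. No label says whether the ORF1p cells were this clone. In every comparison with the ORF1p pull-down, the protein and a difference in cell source therefore cannot be told apart. No label says that replicates were separate cultures, so p-values cover only library-to-library spread, possibly technical in part. In such bulk samples fewer cells that make an RNA and less of it per cell cannot be told apart.

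An endogenous retrovirus is the remnant of a retroviral infection of the germ line. Its internal part (int) once encoded the gag, pol and env proteins, and its long terminal repeats (LTRs) carry the promoter and the polyadenylation signal. HERVH and its LTR, LTR7, are transcribed in pluripotent and embryonal carcinoma cells. HERV-F copies take their letter from the phenylalanine tRNA that primes their reverse transcription, and LTR21 elements are the LTRs annotated with HERVFH21. HERVH48 copies are flanked by MER48 LTRs, and one of them, ERVH48-1, encodes suppressyn, a truncated envelope protein that blocks the fusion receptor of syncytin-1. ORF1p is an RNA-binding chaperone and ORF2p an endonuclease and reverse transcriptase, and both bind mainly the LINE-1 RNA that encodes them.

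Annotated RefSeq genes start at 3 places inside a HERV-Fc or LTR21B member, and these start windows (250 bases before to 50 bases after the start, GRCh38.p14, 5′ to 3′ on the gene's strand) show what the internal and LTR parts of these families look like. LINC01287 starts in the HERV-Fc1-int copy at chr7:153409398-153413807 (window chr7:153412185-153412484, minus strand), LOC124901660 in the LTR21B copy at chr7:65475783-65476228 (window chr7:65475834-65476133, plus strand), and ERVFC1 in the HERV-Fc2_LTR copy at chrX:97841482-97841857 (window chrX:97841496-97841795, plus strand). Capitals mark the TATA-box letters TATAAA and the polyadenylation-signal letters AATAAA, searched on both strands with no overlap between the 2 motifs.
LINC01287, HERV-Fc1-int: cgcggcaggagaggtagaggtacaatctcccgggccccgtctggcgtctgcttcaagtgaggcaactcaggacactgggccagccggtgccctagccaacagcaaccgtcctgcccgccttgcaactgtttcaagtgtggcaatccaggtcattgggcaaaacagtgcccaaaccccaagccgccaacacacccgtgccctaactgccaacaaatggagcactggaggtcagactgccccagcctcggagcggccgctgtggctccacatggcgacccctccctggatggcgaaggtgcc
LOC124901660, LTR21B: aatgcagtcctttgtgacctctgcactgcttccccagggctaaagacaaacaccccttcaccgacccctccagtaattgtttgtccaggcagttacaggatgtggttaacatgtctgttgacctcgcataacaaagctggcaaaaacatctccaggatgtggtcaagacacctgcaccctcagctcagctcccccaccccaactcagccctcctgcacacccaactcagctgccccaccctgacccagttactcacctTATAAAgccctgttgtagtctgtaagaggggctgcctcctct
ERVFC1, HERV-Fc2_LTR: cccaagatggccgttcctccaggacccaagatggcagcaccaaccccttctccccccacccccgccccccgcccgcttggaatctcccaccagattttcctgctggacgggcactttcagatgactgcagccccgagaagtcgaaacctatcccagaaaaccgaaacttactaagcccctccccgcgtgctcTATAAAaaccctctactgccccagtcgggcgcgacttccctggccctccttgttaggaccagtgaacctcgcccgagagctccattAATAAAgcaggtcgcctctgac
The LTR21B window held TATAAA at base 259 of the window and the HERV-Fc2_LTR window held it at base 193 with AATAAA at base 279, while the HERV-Fc1-int window held neither. Over 35116 RefSeq windows of this length, 11.5% held TATAAA and 17.4% held AATAAA on either strand. The GC content was 63.0% in the internal window, 53.7% in the LTR21B window and 59.7% in the HERV-Fc2_LTR window, against a median of 58.7% over all windows. Few reads lay on these copies. The LINC01287 copy had 382.38 reads over the 17 libraries, the LTR21B copy 20.5, the HERV-Fc2_LTR copy none, and the HERV-Fc2-int copy beside it (chrX:97841858-97849054) 9.

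The library totals over all repeats ran from 7693841 to 19670762 reads. The members took 105516 reads, 0.0474% of the total. Their mean share was 0.0251% ± 0.00283 (SD, n = 4) in the ORF1p pull-down, 0.0308% ± 0.00550 (n = 4) in the ORF2p pull-down, 0.0798% ± 0.00657 (n = 3) in the mock and 0.0460% ± 0.0258 (n = 6) in total RNA. ORF1p replicate 3 stood apart from the other ORF1p libraries, with HERVH-int at 66090 CPM (reads scaled to a common library size, with the trimmed mean of M-values, TMM) against 31225 to 39246. Total RNA libraries 1 and 2, labelled b, and 3 to 6, labelled bl, also differed, and both means are given where a result rests on them. Repeats within 10 of 12 listed pluripotency genes were measured and all 10 reached 1 CPM in total RNA, whereas none of the 4 measured trophoblast markers did. Over the 10 pluripotency genes the summed level was 2132 to 2622 CPM in total RNA, 2885 to 3110 in the mock, 1474 to 1572 with ORF1p and 6435 to 7486 with ORF2p. Single members went opposite ways for ORF1p over mock, such as POU5F1 (2.80) and PODXL (2.74) against NANOG (-4.09) and LINC-ROR (-6.36), and L1TD1 was -3.40 for ORF1p and 3.40 for ORF2p over mock. Neither of the 2 measured endoderm markers reached 1 CPM in total RNA. Of the 3 neural markers MAP2 did, and the neural sum was 159 to 173 CPM with ORF1p against 4.24 to 8.08 in the mock; the part of these RNAs in the results was not tested.

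A handful of copies supplied most of the reads. Copies less than 3000 bases apart on the same strand formed 236 units, of which 147 were single loci. The ERVH48-1 provirus on chromosome 21 alone gave 39.5% of all member reads, the HERV-Fc1 provirus inside ZNF138 brought the sum to 58.2%, and the LTR21A copy in FTX, the HERVH48 provirus in FAAH2 and the LTR21A copy in DANCR brought it to 74.1%. This order is of reads pooled over 17 libraries. With ORF1p alone the DANCR copy led, at 65.5 CPM on average, against 3.22 CPM for the ZNF138 copy and at most 11.6 CPM for any ERVH48-1 piece. In all, 235 of the 453 loci (51.9%) lay inside a RefSeq gene span. Of those inside a single span whose strand is listed, 99 ran opposite to the gene and 33 along it. Spans hold exons and introns alike, and no exon table was used here. The subfamilies differed in the divergence from their consensus that the table lists, in a unit it does not state. The median divergence was 35 for the 7 HERV-Fc1-int loci, 80 for the 3 HERV-Fc2-int loci, 96 for the 82 HERVFH19-int loci, 107.5 for the 98 HERVH48-int loci, 117 for the 78 LTR21A loci, 155 for the 39 LTR21B loci and 204 for the 96 HERVFH21-int loci.

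**Figure D1:**
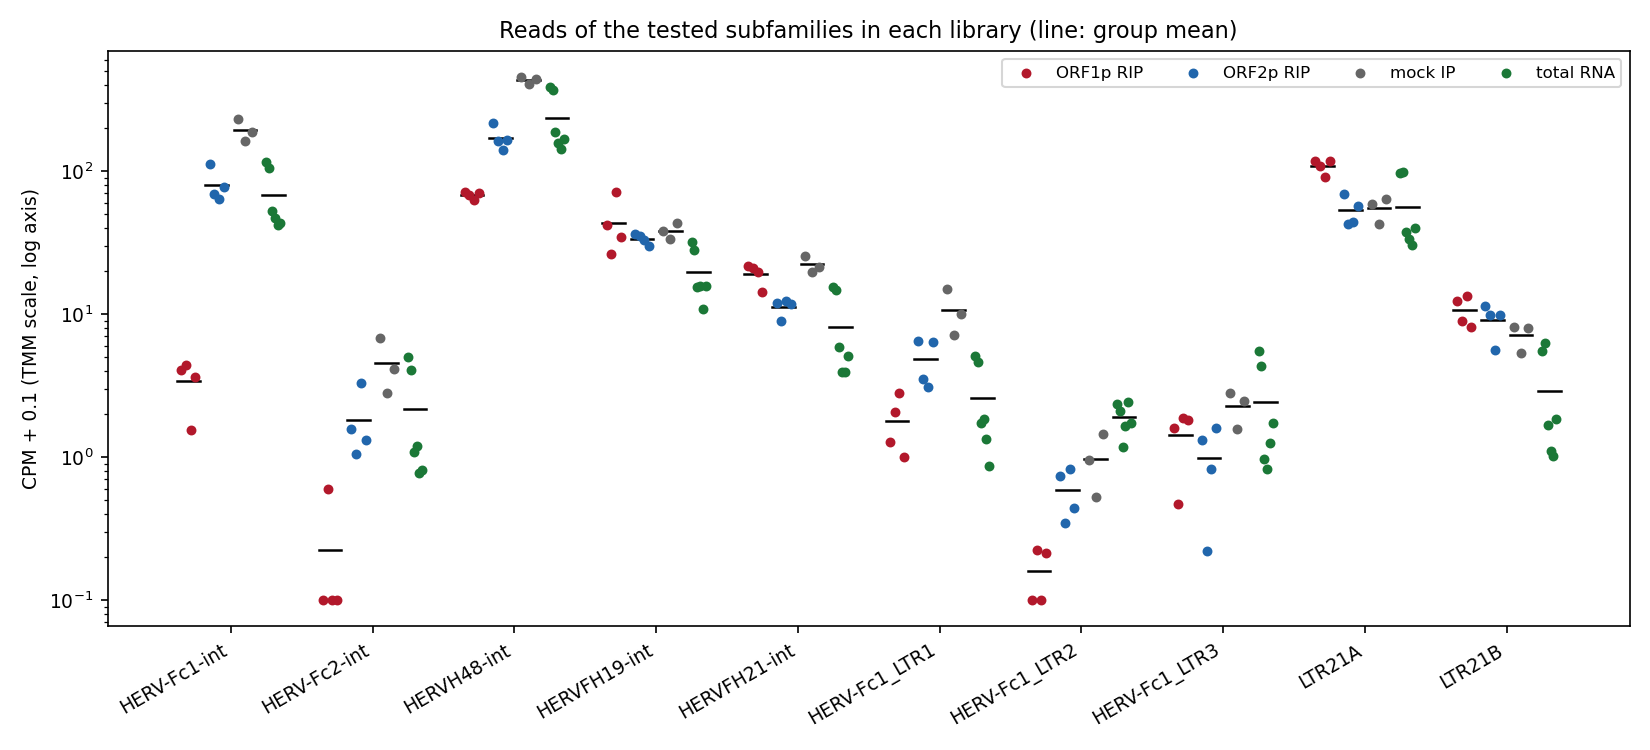
Levels of the 10 tested subfamilies in each of the 17 libraries, as CPM + 0.1 on a log axis; points are libraries, colours the 4 groups, and lines the group means. HERV-Fc1-int sits between 1.45 and 4.35 CPM in the 4 ORF1p libraries and between 162 and 230 CPM in the 3 mock libraries, whereas LTR21A is highest in the ORF1p libraries, at 91.3 to 118 CPM.

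The internal parts and the LTRs of these families did not move as one group. Against the mock, 5 of the 10 tested subfamilies were lower with ORF1p and none was higher, where 8.75% of all 1074 tested subfamilies were called lower and 7.36% higher. A call was an edgeR quasi-likelihood adjusted p under 0.05 with at least a 2-fold change. The counts in all 6 comparisons include the 3 subfamilies that led to the choice of the set, so nothing is read from them. The median log2 difference over the 10 was -1.70, against 0.02 over all subfamilies. With ORF2p, 2 were lower than in the mock and none higher (1.49% and 6.7% of all subfamilies), with a median of -1.06. Between the pull-downs, 5 were called higher in the ORF2p pull-down and 1 lower (12.4% and 6.52%). Against total RNA, 3 were higher and 4 lower with ORF1p (9.12% and 8.29%), 1 higher and 1 lower with ORF2p (5.12% and 1.3%), and 3 higher and 0 lower in the mock (0.745% and 0%). These 6 comparisons share their libraries.

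HERV-Fc1-int was the subfamily with the lowest ORF1p over mock difference of the set. Its 4 ORF1p libraries stood at 3.95, 4.35, 1.45 and 3.53 CPM, on 112 reads in all. The ORF2p libraries stood at 112, 69.1, 63.8 and 77.5 CPM, the mock libraries at 230, 162 and 188 CPM, and total RNA ran from 41.8 through a median of 49.8 to 116 CPM. All ORF1p libraries lay below all others, and the ORF2p libraries lay below the mock and among those of total RNA. The fitted log2 difference was -5.82 ± 0.44 (SE) for ORF1p over mock and -1.26 ± 0.35 for ORF2p over mock. Against total RNA it was -4.31 ± 0.41 for ORF1p and 0.25 ± 0.30 for ORF2p. The mock stood above total RNA by 1.51 ± 0.31, with a mean of 193 CPM against 111 in the b libraries and 46.3 in the bl libraries, and by 0.78 with the b libraries alone.

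A single provirus was assigned most reads of this subfamily. Of the nonzero values of its internal part, 11.8% were whole numbers, so most rest on reads divided among loci. The HERV-Fc1-int copy at chr7:64835238-64839812 (4575 bases, minus strand, inside the plus-strand span of ZNF138, a KRAB zinc finger gene) gave 97.2% of the HERV-Fc1-int reads with ORF1p, 92.2% with ORF2p, 94.9% in the mock and 92.1% in total RNA. It stood at 3.95, 4.20, 1.45 and 3.26 CPM with ORF1p, at 107, 65.4, 55.1 and 71.2 CPM with ORF2p, at 220, 152 and 178 CPM in the mock, and at 39.3 to 105 CPM (median 46.3) in total RNA. The order of the groups was that of the subfamily, with no overlap between the 3 kinds of pull-down. Its log2 difference was -5.81 ± 0.48 for ORF1p over mock, -1.30 ± 0.40 for ORF2p over mock, and -4.25 ± 0.42 for ORF1p over total RNA.

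The 2 LTRs of this provirus, both HERV-Fc1_LTR1, fell less far than the internal part between them. The 3′ LTR (chr7:64834895-64835237) was lower with ORF1p than in the mock by -3.36 ± 0.68 and the 5′ LTR (chr7:64839813-64840158) by -2.79 ± 0.77. No p-value is given, since these LTRs belong to a provirus that led to the choice of the set. Per kilobase, the 5′ LTR, the internal part and the 3′ LTR stood at 9.86, 40.1 and 15.03 CPM in the mock but at 1.49, 0.703 and 1.43 CPM with ORF1p. By these means the internal part was the highest of the 3 pieces in the mock and the lowest with ORF1p. The ORF1p SDs were 1.26, 0.272 and 1.36 in the same order, so the order with ORF1p lies within the spread. Against total RNA, ORF1p stood at -0.11 ± 0.72, -4.25 ± 0.42 and -1.22 ± 0.63 in that order. The mock stood above total RNA by 2.68 ± 0.62 at the 5′ LTR and 2.14 ± 0.52 at the 3′ LTR. Whether the LTR and internal differences themselves differ was not tested.

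The other repeats of the ZNF138 span changed less than the provirus. They were lower with ORF1p than in the mock by -1.13 ± 0.14 (edgeR adjusted p = 1.71e-06, where 28.2% of 13046 tested spans were called lower and 25.5% higher), and did not pass the test with ORF2p (-0.05 ± 0.14, adjusted p = 0.807; 4.79% of spans lower and 13.8% higher). The log2 ratio of the HERV-Fc1-int copy to those repeats was lower by -5.12 with ORF1p than in the mock and by -1.13 with ORF2p, with no overlap between the libraries in either case.

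**Figure D2:**
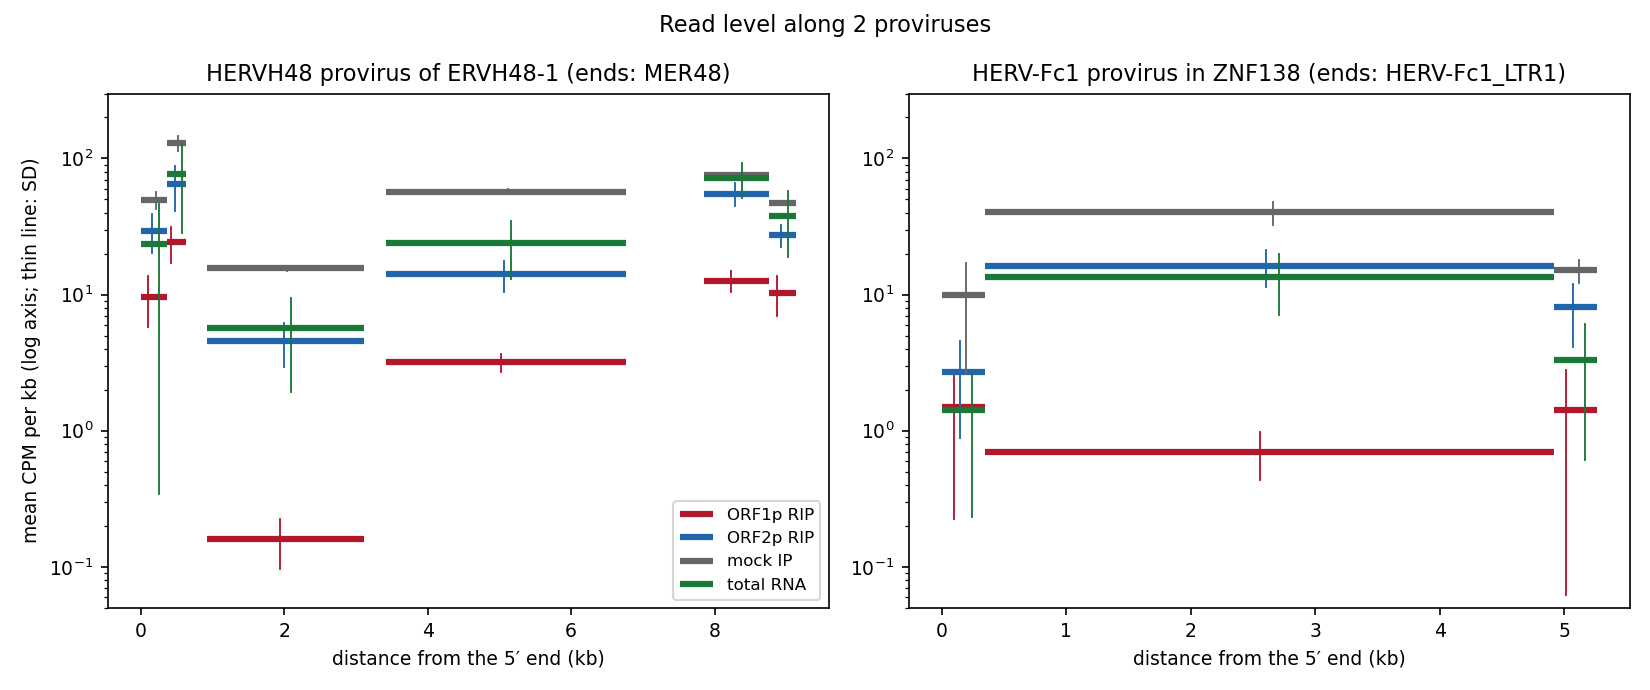
Mean level per kilobase of each annotated piece along the ERVH48-1 provirus and the HERV-Fc1 provirus in ZNF138, in CPM per kilobase on a log axis against the distance from the 5′ end in kilobases; colours are the 4 groups and thin lines the SD over libraries. In the HERV-Fc1 provirus the internal part stands at 40.1 in the mock and 0.703 with ORF1p, and in ERVH48-1 the 2183-base piece stands at 15.6 and 0.160.

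The remaining HERV-Fc internal copies were near 0 with ORF1p. The copy at chr2:83874409-83879018, outside gene spans, had 1.29 reads over the 4 ORF1p libraries and 221.67 reads over the 3 mock libraries, a mock over ORF1p ratio of 156 (exact 95% counting interval 27.7 to 6184). The LINC01287 copy printed above had 2.27 ORF1p reads, with a ratio of 50.9 (13.8 to 424). The copy at chr11:5935248 had no ORF1p read. Against a floor of 3 reads in each ORF1p library, its mock level was at least 1.61-fold higher and its ORF2p level at least 4.89-fold higher. Such intervals and floors cover counting error only, and not how reads were divided among loci.

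HERV-Fc2-int, with 3 loci, was scarce and was lowest with ORF1p. Reads fell in only 1 of the 4 ORF1p libraries (4 reads in replicate 2, 0.497 CPM). The ORF2p libraries stood at 1.48, 0.955, 3.18 and 1.23 CPM, the mock libraries at 6.68, 2.72 and 4.04 CPM, and total RNA ran from 0.679 through 1.04 to 4.96 CPM. The ORF1p libraries lay below all others, while ORF2p, mock and total RNA libraries overlapped. The log2 difference from total RNA was -4.04 ± 1.10 for ORF1p, -0.36 for ORF2p and 1.04 for the mock. Total RNA averaged 4.48 CPM in the b and 0.868 in the bl libraries. The mock mean (4.48 CPM) was thus at the level of the b libraries. The ORF2p mean (1.71 CPM) lay below the b and above the bl mean. Its leading copy at chr11:5928773-5929601 (829 bases, plus strand, in the minus-strand span of LOC112268071) had no ORF1p read. Against the floor of 3 reads per ORF1p library, it was at least 8.56-fold higher in the mock, at least 3.23-fold higher with ORF2p and at least 2.83-fold higher in total RNA.

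HERVH48-int took the most reads of the 12 subfamilies over all libraries pooled, though not with ORF1p, where it had 67.9 CPM on average against 109 for LTR21A. The ORF1p libraries stood at 71.3, 67.6, 62.4 and 70.1 CPM, the ORF2p libraries at 218, 163, 140 and 165 CPM, the mock libraries at 456, 407 and 442 CPM, and total RNA from 142 through 179 to 391 CPM. The 3 kinds of pull-down did not overlap, and total RNA overlapped with ORF2p only, through its bl libraries. The log2 difference was -2.68 ± 0.31 for ORF1p over mock, -1.34 ± 0.30 for ORF2p over mock and 1.34 ± 0.29 for ORF2p over ORF1p. Against total RNA it was -1.80 ± 0.28 for ORF1p, -0.47 ± 0.26 for ORF2p and 0.87 ± 0.27 for the mock. Total RNA averaged 382 CPM in the b and 165 in the bl libraries, against 172 with ORF2p and 435 in the mock. The ORF2p mean was thus near the bl mean, and the mock mean was nearer to the b mean. Their relative HERVH-int differed by -2.09 for ORF1p over mock and -1.38 for ORF2p over mock.

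ERVH48-1 dominated HERVH48-int everywhere except with ORF1p. Its 4 internal pieces lie on the minus strand of chromosome 21 and held 73.4% of all HERVH48-int reads. They made up 75.5% ± 1.91 (SD, n = 3) of these reads in the mock, 76.6% ± 4.001 (n = 6) in total RNA and 71.9% ± 4.67 (n = 4) with ORF2p, but 42.5% ± 5.99 (n = 4, 37.9% to 50.8%) with ORF1p. The FAAH2 copy made up 18.7% with ORF1p, against 6.10% with ORF2p, 8.85% in the mock and 5.19% in total RNA.

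Within ERVH48-1 the difference varied between pieces. At most 35.3% of the nonzero values of any piece were whole numbers, so these levels depend on how reads were divided among loci. The longest piece (chr21:42919108-42922458, 3351 bases) stood at 8.28, 11.2, 11.1 and 12.2 CPM with ORF1p, at 64.9, 44.7, 36.4 and 43.3 with ORF2p, at 198, 182 and 194 in the mock, and at 51.0 to 129 (median 61.8) in total RNA. The pull-downs did not overlap, and the log2 difference was -4.16 ± 0.40 for ORF1p over mock and -2.01 ± 0.37 for ORF2p over mock. The piece before it (chr21:42922766-42924948, 2183 bases) had 11 reads in the ORF1p libraries, 0.350 CPM on average against 34.0 in the mock, a difference of -6.59 ± 0.60. The 2 end pieces differed less, by -2.41 ± 0.46 (chr21:42925245-42925502, at the 5′ end) and -2.58 ± 0.35 (chr21:42917114-42918026, at the 3′ end). ORF1p was also below total RNA for all 4 pieces, from -1.66 ± 0.41 at the 5′ end piece (-0.91 with the bl libraries alone) to -5.14 ± 0.56 at the 2183-base piece.

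Read from 5′ to 3′ per kilobase, the mock levels of the MER48 LTR, the 4 internal pieces and the second MER48 were 49.6, 130, 15.6, 57.0, 75.8 and 47.4 CPM. With ORF1p they were 9.68, 24.4, 0.160, 3.18, 12.7 and 10.3 CPM, and with ORF2p 29.5, 64.6, 4.55, 14.1, 55.1 and 27.3 CPM. The 2183-base piece was the lowest of the 6 in each of these groups. The MER48 ends are no members of the set, but belong to a provirus that led to its choice, and are given without a p-value. They were lower with ORF1p than in the mock by -2.35 ± 0.59 and -2.19 ± 0.42, and did not pass the test with ORF2p (-0.74 and -0.79). Without its 4 ERVH48-1 pieces, an alternative added after the values were seen, HERVH48-int stood -0.60 from total RNA with ORF1p.

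Other HERVH48 copies showed 3 further patterns. The copy in FAAH2, a fatty acid amide hydrolase gene (chrX:57220438-57224273, 3836 bases, along the gene), stood at 12.4, 12.98, 14.7 and 10.4 CPM with ORF1p, at 13.2, 10.2, 7.20 and 11.5 with ORF2p, at 40.3, 34.3 and 41.0 in the mock, and at 8.18 to 19.2 (median 9.36) in total RNA. Only the mock libraries stood above the rest. The log2 difference from total RNA was 1.68 ± 0.33 for the mock, 0.07 for ORF1p and -0.19 for ORF2p. The rest of the FAAH2 span moved the other way with ORF2p, by 2.86 ± 0.36 over the mock (edgeR adjusted p = 1.05e-05), and the log2 ratio of the copy to it was lower by -4.63 with ORF2p than in the mock, with no overlap.

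The HERVH48 copy shared by the spans of NFE4 and FBXL13 was nearly absent with ORF1p. Its long piece (chr7:102974409-102977040) had 5 ORF1p reads, 0.144 CPM on average, against 18.5, 14.997 and 17.9 CPM in the mock, 4.91 on average with ORF2p and 6.38 in total RNA. Its log2 difference was -6.73 ± 0.67 for ORF1p over mock, -1.80 ± 0.48 for ORF2p over mock and -5.31 ± 0.63 for ORF1p over total RNA. The short piece before it (chr7:102973617-102974108) had 1 ORF1p read, and its ORF2p libraries, at 3.54, 7.35, 2.41 and 7.10 CPM, overlapped with the mock (3.05, 2.62 and 3.89) and, in part, with total RNA (0.716 to 3.01). The log2 difference of ORF2p from total RNA was 1.72 ± 0.43 there, and 0.92 with the b libraries alone.

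Other HERVH48 copies had smaller or opposite differences. The 3 ZNF91 copies (ZNF91 is a KRAB zinc finger gene that silences SVA elements) had ORF1p over mock differences of -0.73, -0.48 and -1.21. At chr19:23344909 and chr19:23349443 every ORF1p library lay below every mock library, and at chr19:23346593 they overlapped. The copy in COX16 (chr14:70346131-70349924) stood at 4.70, 4.28, 4.99 and 1.25 CPM with ORF1p and at 0.851, 0, 0.105 and 0.280 with ORF2p. These groups did not overlap, and the difference was -3.56 ± 0.77 for ORF2p over ORF1p. The log2 difference of ORF2p from total RNA was -2.57 ± 0.73 at this copy, and -1.25 with the bl libraries alone.

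**Figure D3:**
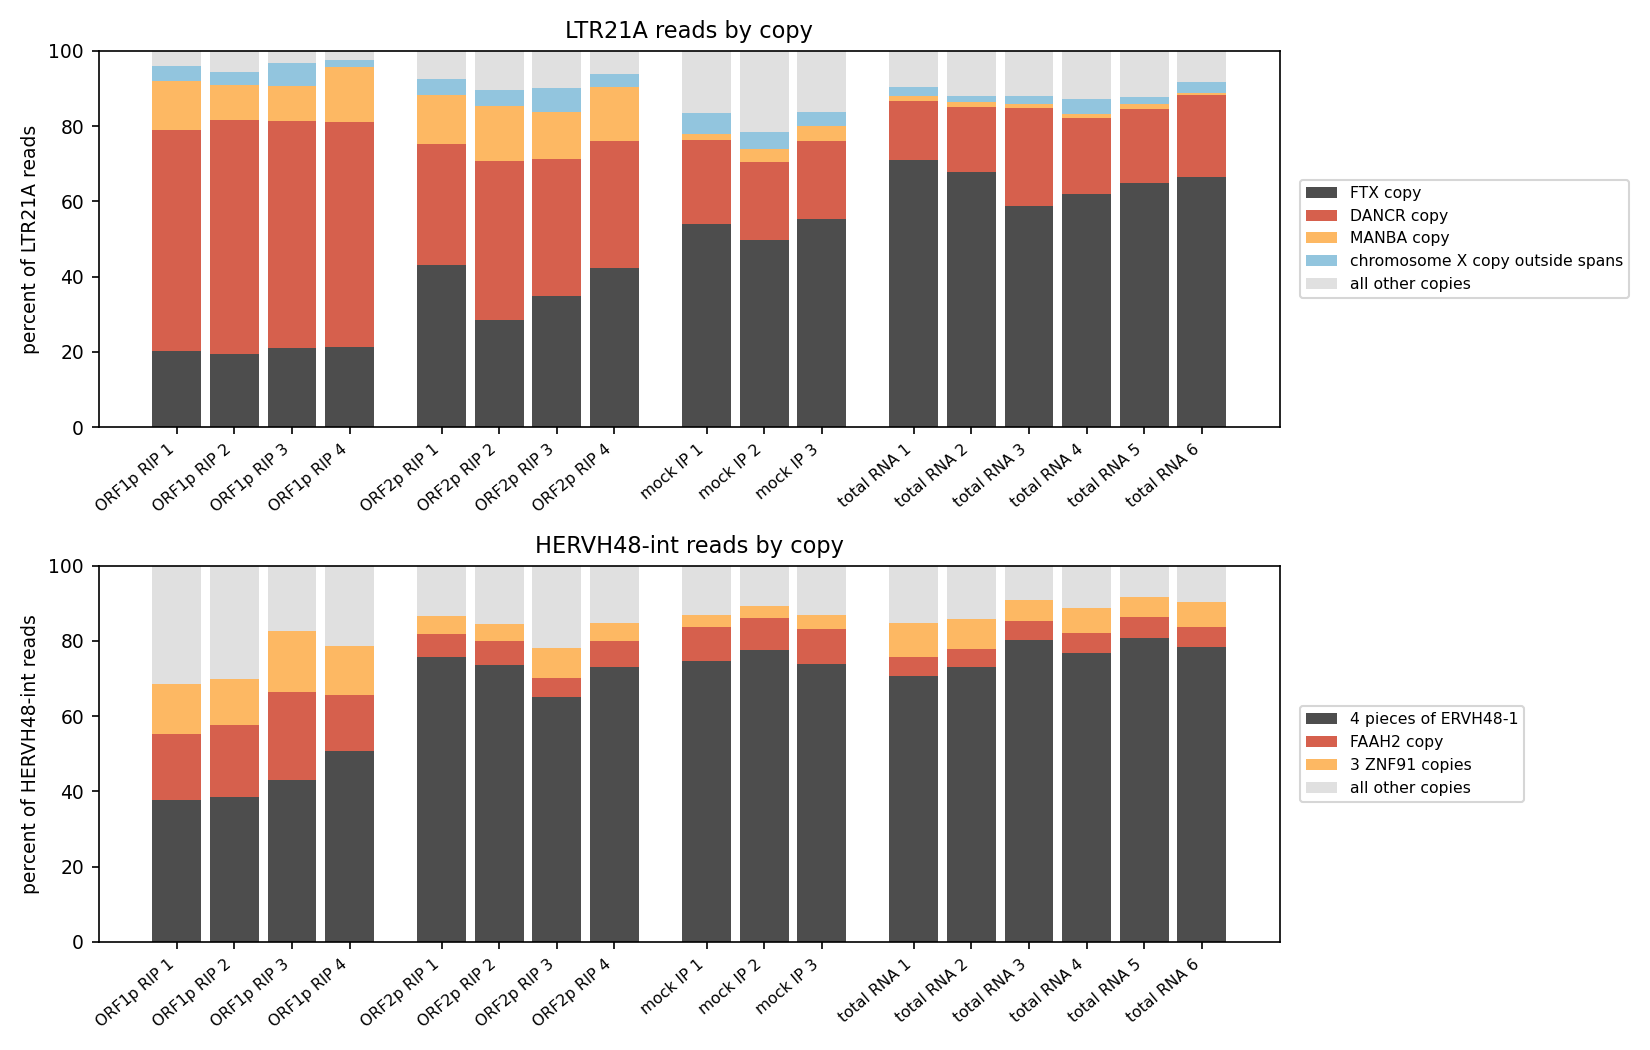
Share of the LTR21A reads (copies in FTX, DANCR and MANBA, 1 copy on chromosome X outside gene spans, and all others) and of the HERVH48-int reads (4 ERVH48-1 pieces, FAAH2, 3 ZNF91 copies and all others), as stacked percent for each of the 17 libraries. The DANCR copy takes 58.7% to 62.1% of the LTR21A reads in the ORF1p libraries against 20.8% to 22.3% in the mock, and the ERVH48-1 pieces take 37.9% to 50.8% of the HERVH48-int reads with ORF1p.

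HERVFH19-int and HERVFH21-int, the internal parts of the HERVFH group, passed the test against the mock in neither pull-down as subfamilies. HERVFH19-int stood at 42.0, 26.3, 71.1 and 34.3 CPM with ORF1p, at 36.5, 35.0, 33.2 and 29.7 with ORF2p, at 38.3, 33.5 and 43.1 in the mock, and at 10.8 to 32.2 (median 15.6) in total RNA. ORF1p replicate 3 was the highest, and the 3 kinds of pull-down overlapped. Its log2 difference from the mock was 0.18 with ORF1p (edgeR adjusted p = 0.684) and -0.19 with ORF2p (adjusted p = 0.709). ORF1p was above total RNA by 1.13 ± 0.29 (adjusted p = 0.00293), a call lost without ORF1p replicate 3 (0.80), with the b libraries alone as total RNA (0.44), and without its leading copy (0.37). HERVFH21-int was above total RNA with ORF1p by 1.22 ± 0.36 (adjusted p = 0.00753) and in the mock by 1.44 ± 0.37 (adjusted p = 0.0498). Both calls were lost with the b libraries alone (0.29 and 0.55), and the mock call also when any library other than total RNA 1 or 2 was left out, which held for 15 of the 17 libraries.

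Single HERVFH19 copies on the sex chromosomes were assigned levels that went in opposite directions with ORF1p. No nonzero value of either copy was a whole number, so their reads were divided among loci. Whether these copies shared reads was not tested, and the p-values below do not cover this division. The copy at chrX:90235011-90235559 (549 bases, in LOC105373292) stood at 16.3, 10.1, 40.7 and 14.6 CPM with ORF1p, at 10.1, 8.93, 8.81 and 9.42 with ORF2p, at 9.07, 9.07 and 10.1 in the mock, and at 1.14 to 4.19 (median 2.24) in total RNA. All 3 kinds of pull-down stood above total RNA, by 3.03 ± 0.37 with ORF1p (edgeR adjusted p = 8.67e-08), 1.90 ± 0.36 with ORF2p (adjusted p = 0.000263) and 1.92 ± 0.39 in the mock (adjusted p = 0.0118). Over the mock, ORF1p was higher by 1.11 ± 0.44 (adjusted p = 0.0365), but without ORF1p replicate 3 the difference was 0.54 (adjusted p = 0.263), and the call was also lost without any one mock library (1.08 to 1.16). The mock call over total RNA was lost without mock replicate 1 (1.94) or 3 (1.87) and with the b libraries alone (1.57). The copy at chrY:3804332-3804876 (545 bases, in LOC105377227) stood at 1.55, 0.772, 0.699 and 1.25 CPM with ORF1p, at 16.7, 17.8, 10.7 and 11.1 with ORF2p, at 5.04, 8.93 and 13.9 in the mock, and at 2.58 to 3.94 (median 3.24) in total RNA. ORF1p libraries lay below all others there. ORF1p was below the mock by -3.09 ± 0.44 (adjusted p = 1.75e-06), as were the other repeats of the LOC105377227 span (-2.97 ± 0.49, adjusted p = 3.50e-05). ORF2p over mock did not pass the test for the copy (0.60, adjusted p = 0.315) and was 1.93 ± 0.47 for the span (adjusted p = 0.00372). ORF2p at the copy was above ORF1p by 3.69 ± 0.43 (adjusted p = 5.75e-08) and above total RNA by 2.12 ± 0.33 (adjusted p = 1.97e-05).

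A longer HERVFH19 copy on chromosome X rested on 1 library. The copy at chrX:72224769-72227745, in the spans of ERCC6L and PIN4, stood at 5.02, 3.23, 12.7 and 3.08 CPM with ORF1p, replicate 3 being the highest. It was above total RNA by 1.25 ± 0.46 (edgeR adjusted p = 0.0221), or 0.60 and not called without ORF1p replicate 3, with overlapping libraries.

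A HERVFH19 copy inside EIF2AK2, the gene of the double-stranded-RNA-activated kinase PKR, did not follow the other repeats of its gene. The copy (chr2:37132610-37135454, opposite to the gene) was lower with ORF1p than in the mock by -1.28 ± 0.48 (edgeR adjusted p = 0.0275), a call lost without ORF1p replicate 2 (-1.14) or 4 (-1.20) or mock replicate 1 (-0.78). The rest of the span was higher by 2.32 ± 0.13 (adjusted p = 4.01e-11). The log2 ratio of the copy to the span was lower by -3.84 with ORF1p and by -2.85 with ORF2p than in the mock. The groups did not overlap in either case (exact two-sided permutation p = 0.0571, the smallest that 4 against 3 libraries allow; 0.125 after adjustment over 114 such tests).

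A HERVFH21 provirus on chromosome 11, outside gene spans, showed its strongest signal in one LTR. Its LTR21B at chr11:3357888-3358320 (433 bases, 5′ end) stood at 10.7, 7.699, 11.4 and 7.53 CPM with ORF1p, at 8.30, 7.38, 5.13 and 7.38 with ORF2p, at 4.17, 2.67 and 5.01 in the mock, and at 0.167 to 1.52 (median 0.353) in total RNA. Each kind of pull-down lay above total RNA and both proteins above the mock. The log2 difference from total RNA was 3.84 ± 0.45 with ORF1p (edgeR adjusted p = 4.96e-08), 3.44 ± 0.45 with ORF2p (adjusted p = 1.22e-06) and 2.60 ± 0.47 in the mock (adjusted p = 0.00652; 1.57 and not called with the b libraries alone). Over the mock, ORF1p was higher by 1.24 ± 0.51 (adjusted p = 0.0460), a call lost when any one ORF1p or mock library was left out (adjusted p up to 0.176), and ORF2p did not pass the test (0.84, adjusted p = 0.270). Per kilobase this LTR stood at 21.6 CPM with ORF1p, the internal part (chr11:3353238-3357886) at 2.23 and the 3′ LTR21B at 0.582; in total RNA the values were 1.44, 0.735 and 0.0995.

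That copy held most LTR21B reads in the pull-downs. LTR21B as a whole was above total RNA by 1.87 ± 0.46 with ORF1p (edgeR adjusted p = 0.00221) and by 1.64 ± 0.45 with ORF2p (adjusted p = 0.00992), and the chromosome 11 copy made up 88.3% of its reads with ORF1p, 79.4% with ORF2p, 55.2% in the mock and 20.9% in total RNA. Without it the differences were -0.87 (adjusted p = 0.253) and -0.09 (adjusted p = 0.928). With the b libraries alone both calls were also lost (0.80 and 0.60).

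LTR21A ran against HERVH48-int and HERV-Fc1-int in that it was highest with ORF1p. Its libraries stood at 118, 108, 91.3 and 118 CPM with ORF1p, at 68.9, 42.5, 43.9 and 57.2 with ORF2p, at 58.6, 42.5 and 63.4 in the mock, and at 30.2 to 98.8 (median 38.6) in total RNA. The ORF1p libraries lay above the ORF2p and mock libraries and overlapped with the b libraries of total RNA. The difference was 0.99 ± 0.39 for ORF1p over mock (edgeR adjusted p = 0.0418, just under 2-fold and so not called), -0.04 for ORF2p over mock (adjusted p = 0.936) and -1.03 ± 0.36 for ORF2p over ORF1p (adjusted p = 0.0206, called). The last call was lost without ORF1p replicate 1 or 4 or ORF2p replicate 2 or 3, where the difference was -0.94 to -0.99. Relative to HERVH-int, LTR21A was higher with ORF1p than in the mock by 3.16 on the log2 scale, with no overlap (exact two-sided permutation p = 0.0571, the smallest possible; 0.111 after adjustment over 60 tests).

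The ORF1p signal of LTR21A was assigned mostly to the copy in DANCR, a long noncoding RNA gene. Of the nonzero values of this copy 11.8% were whole numbers, so most rest on reads divided among loci. The p-values below do not cover this division. This copy (chr4:52713763-52714175, 413 bases, along the gene) stood at 69.1, 67.4, 55.0 and 70.4 CPM with ORF1p, at 22.1, 17.97, 15.97 and 19.3 with ORF2p, at 13.04, 8.85 and 13.3 in the mock, and at 5.97 to 17.3 (median 9.23) in total RNA. The ORF1p libraries lay far above all others, and those of ORF2p above the mock. ORF1p was higher than the mock by 2.48 ± 0.40 (edgeR adjusted p = 1.34e-05), than total RNA by 2.63 ± 0.31 (adjusted p = 6.38e-08) and than ORF2p, which was lower by -1.79 ± 0.35 (adjusted p = 0.000119). ORF2p over mock did not pass the test (0.68, adjusted p = 0.223). The rest of the DANCR span was higher by 0.70 ± 0.25 (adjusted p = 0.0186, under 2-fold), and the log2 ratio of the copy to it was higher by 1.48 with ORF1p than in the mock, with no overlap (exact two-sided permutation p = 0.0571, 0.125 after adjustment). Without the DANCR copy, an alternative added after the values were seen, LTR21A stood 0.01 from the mock with ORF1p (adjusted p = 0.985).

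The copy in MANBA, the lysosomal beta-mannosidase gene, was the tested locus of the set that was called higher than the mock in both pull-downs. It lies at chr4:102730255-102730501 (247 bases), also within the span of the pseudogene LRRC37A15P, and stood at 15.2, 10.2, 8.53 and 17.3 CPM with ORF1p, at 9.04, 6.27, 5.55 and 8.16 with ORF2p, at 0.977, 1.40 and 2.48 in the mock, and at 0.205 to 1.32 (median 0.384) in total RNA. Both proteins stood above the mock and total RNA in every library. The difference from the mock was 2.99 ± 0.53 with ORF1p (edgeR adjusted p = 3.59e-05) and 2.17 ± 0.51 with ORF2p (adjusted p = 0.0038), and from total RNA 4.28 ± 0.43 (adjusted p = 2.75e-09) and 3.45 ± 0.42 (adjusted p = 3.99e-07). The rest of the MANBA span did not pass the test in either pull-down (-0.17, adjusted p = 0.190, and 0.13, adjusted p = 0.393).

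The most abundant LTR21A copy in total RNA did not follow either. It lies in FTX, a long noncoding RNA gene of the X-inactivation centre (chrX:74249940-74250412, opposite to the gene), and stood at 22.3 CPM on average with ORF1p, 20.3 with ORF2p, 29.3 in the mock and 37.4 in total RNA (67.7 in the b and 22.2 in the bl libraries). No comparison of it passed the test (ORF1p over mock -0.39, edgeR adjusted p = 0.488). It made up 65.1% ± 4.37 (SD, n = 6) of the LTR21A reads in total RNA and 53.0% ± 2.89 (n = 3) in the mock but 20.5% ± 0.82 (n = 4) with ORF1p, where the DANCR copy made up 60.2% ± 1.44.

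**Figure D4:**
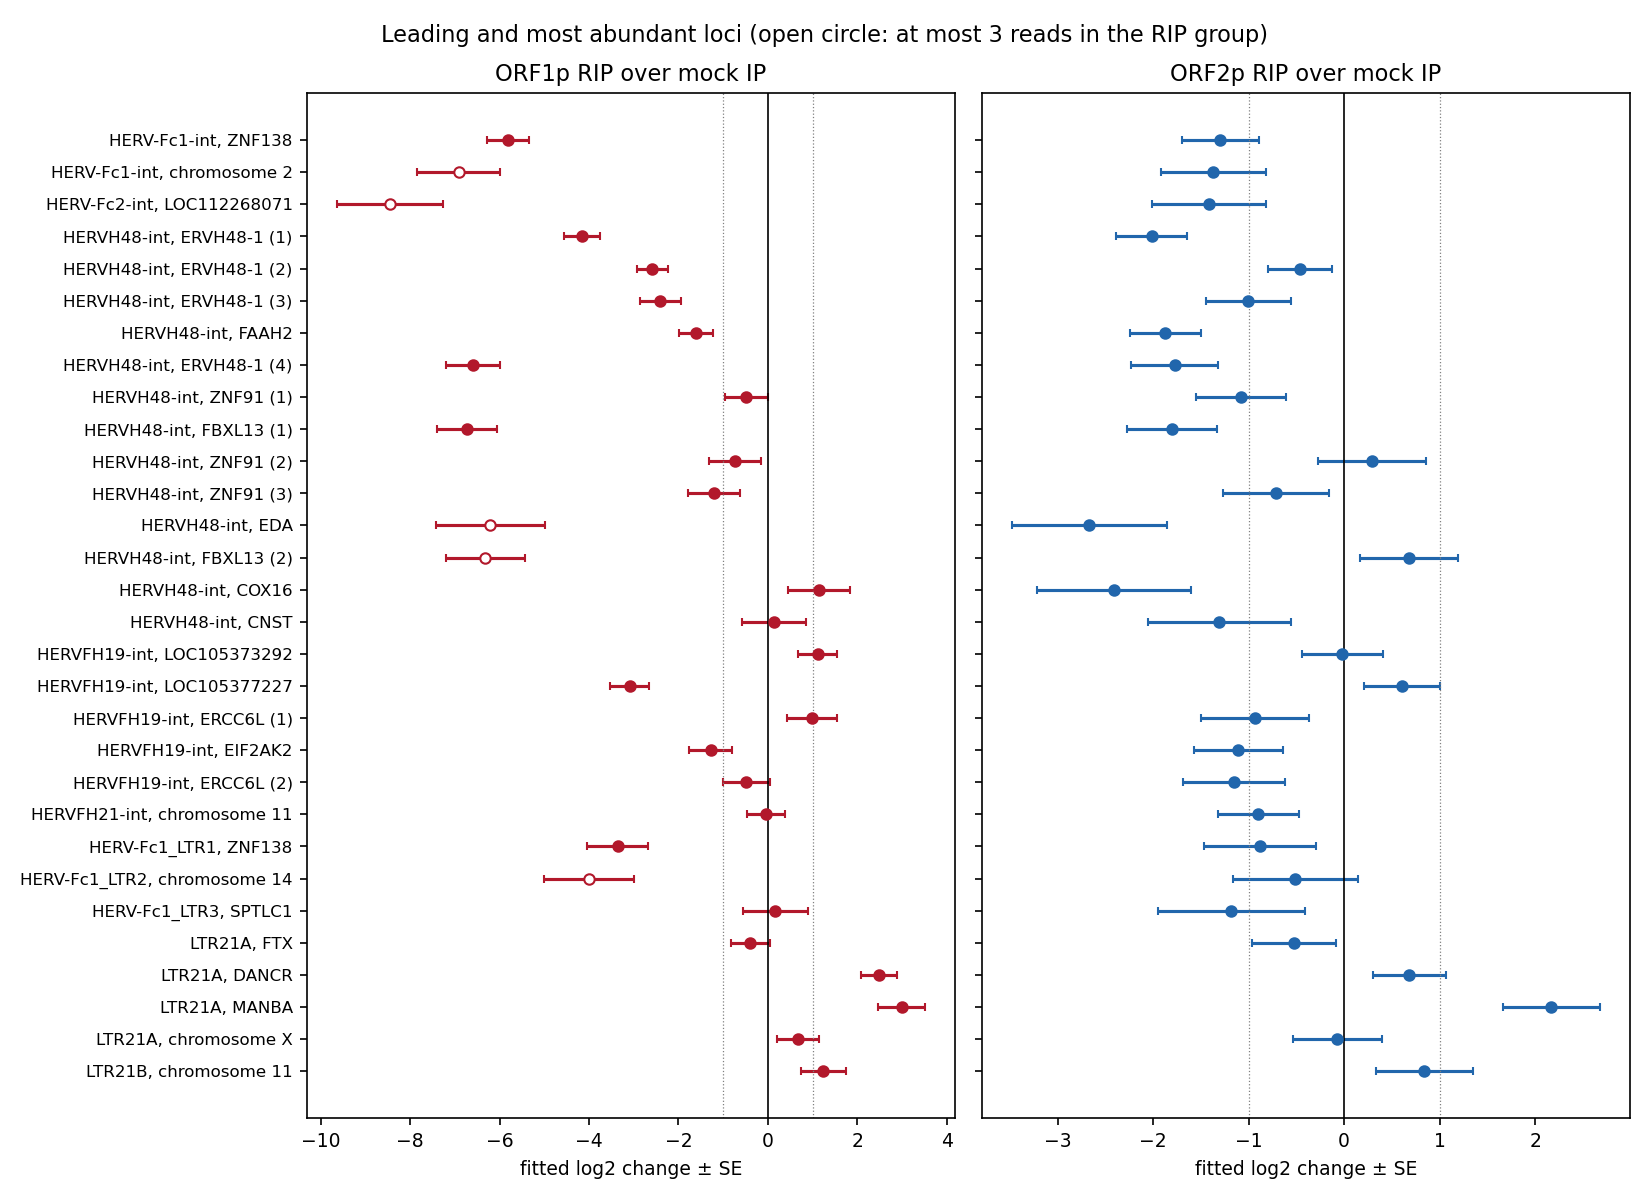
Fitted log2 differences with SE of the 30 named loci that were tested, ORF1p over mock in one panel and ORF2p over mock in the other, each with its own scale; open circles mark loci with at most 3 reads in the pull-down and dotted lines 2-fold changes. With ORF1p the ERVH48-1 pieces range from -6.59 to -2.41 and the HERV-Fc1-int copy in ZNF138 stands at -5.81, while the LTR21A copies in MANBA and DANCR stand at 2.99 and 2.48.

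The HERV-Fc1 LTRs were scarce. HERV-Fc1_LTR1 stood at 1.17, 1.99, 2.74 and 0.912 CPM with ORF1p, at 6.39, 3.44, 2.98 and 6.26 with ORF2p, at 14.998, 7.04 and 9.86 in the mock, and at 0.765 to 5.01 (median 1.69) in total RNA. The 3 kinds of pull-down did not overlap. ORF1p was lower than the mock by -2.69 ± 0.57 and not called against total RNA (-0.65). ORF2p was higher than ORF1p by 1.54 ± 0.58, and ORF2p over mock did not pass the test (-1.15). The 3′ LTR of the ZNF138 provirus held 50.9% of the HERV-Fc1_LTR1 reads in the mock, so no p-value is given. Without ORF1p replicate 1 or 4 or ORF2p replicate 1 or 4, the ORF2p over ORF1p difference was 1.33 to 1.39 and no longer called. HERV-Fc1_LTR2 had 2 ORF1p reads against 39 in the mock, a mock over ORF1p ratio of 13.7 (exact 95% counting interval 3.54 to 117), and was lower with ORF2p than in total RNA by -1.89 ± 0.40 (adjusted p = 0.00164). HERV-Fc1_LTR3 was called in no comparison (ORF1p over mock -0.72, adjusted p = 0.436). HERV-Fc2_LTR had 3 reads in all and LTR21C, which the table files under another family (ERVL), 84, and neither was tested.

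Over the 67 tested loci, 8 were called higher and 35 lower with ORF1p than in the mock, where 21.1% and 27.2% of all 379871 tested loci were. The median log2 difference was -1.84, or -1.30 with the 11 loci without an ORF1p read at their bound, against -0.07 over all loci. With ORF2p, 1 was higher and 9 lower than in the mock (8.19% and 8.06% of all loci), with a median of -1.09 against -0.32. These counts include the copies of HERV-Fc1-int, HERV-Fc2-int and HERVH48-int, so nothing is read from them. Counts for subfamilies that did not lead to the choice follow, with ORF1p against the mock. Of the 12 tested HERVFH19-int loci, 2 were lower and 3 higher. Of the 6 HERVFH21-int loci 2 were lower and 1 higher, and of the 8 LTR21A loci 4 were lower and 2 higher. Some lower loci may have passed the read filter through the mock alone, which would fix their direction. HERVFH21-int chr13:86757694 had 1.44 CPM in the mock, 0.192 with ORF2p, 0.176 in total RNA and no ORF1p read. LTR21A chr16:30548318 had 1.32, 0.434 and 0.361 CPM in the same order, and 3 ORF1p reads. Nothing is therefore read from these counts either. The 8 higher loci were the copies in DANCR and MANBA, those at chrX:90235011 and chr11:3357888 described above, and 4 others named here after their values were seen. These were HERVFH21-int chr14:102234170 in MOK (4.30), HERVH48-int chr5:43072721 in LOC100506639 (3.60), HERVFH19-int chr5:104590997 (3.38) and HERVFH19-int chr6:32706957. The last had 32.67 ORF1p reads and 3 mock reads. The copies at chr5:43072721 and chr5:104590997 had 8 and 12 mock reads. The MOK copy belongs to a unit with 239.5 reads over the 17 libraries. The MOK, chr5 and chr6 copies may have passed the read filter through ORF1p alone, which would fix the direction of their calls. Nothing is read from those calls. The HERVFH19-int and HERVFH21-int ones among them are part of the counts above. Between the pull-downs, 27 were called higher in the ORF2p pull-down and 10 lower (27.7% and 26.1% of all loci). Against total RNA, 13 were higher and 31 lower with ORF1p (26.6% and 28.9%), 6 higher and 6 lower with ORF2p (12.8% and 13.7%), and 9 higher and 0 lower in the mock (1.09% and 0.163%).

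Set beside HERVH-int in the same library, the HERVFH internal parts and the LTR21 elements had higher ratios in every ORF1p library than in any mock library. The log2 ratio to HERVH-int was higher by 2.25 for HERVFH19-int, 1.94 for HERVFH21-int, 3.16 for LTR21A and 2.74 for LTR21B (each exact two-sided permutation p = 0.0571, adjusted 0.111). HERVH-int itself differed by -2.09 for ORF1p over mock. The levels of these subfamilies differed by 0.18, -0.22, 0.99 and 0.59 in the same order, and none was called. A higher ratio here is thus not a higher level. For HERV-Fc1-int and HERVH48-int the ratio went the other way. The ratio was lower by -3.77 for HERV-Fc1-int and by -0.52 for HERVH48-int. With ORF2p the ratio was also higher than in the mock, with no overlap, for HERVFH19-int (1.197), HERVFH21-int (0.40), LTR21A (1.33) and LTR21B (1.72), each with the same exact two-sided permutation p = 0.0571 (adjusted 0.111). It differed by 0.10 for HERV-Fc1-int and 0.02 for HERVH48-int, with overlap. No ratio passed the threshold after adjustment over the 60 tests. Among other repeats, 62 internal parts of the same class (ERV1) outside the set were tested. With ORF1p 12 were lower than in the mock and 4 higher, with a median of -0.15. Of LTR7 and its forms, 2 of 5 were lower (LTR7 -2.28 ± 0.27, and LTR7A -2.92 ± 0.52 on 11.81 ORF1p reads). LTR7C was higher (1.48 ± 0.29), and LTR7B (-0.87) and LTR7Y (0.12) were not called. Over all tested subfamilies 8.75% were lower and 7.36% higher. None of LTR19A to LTR19C was called in any comparison.

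**Figure D5:**
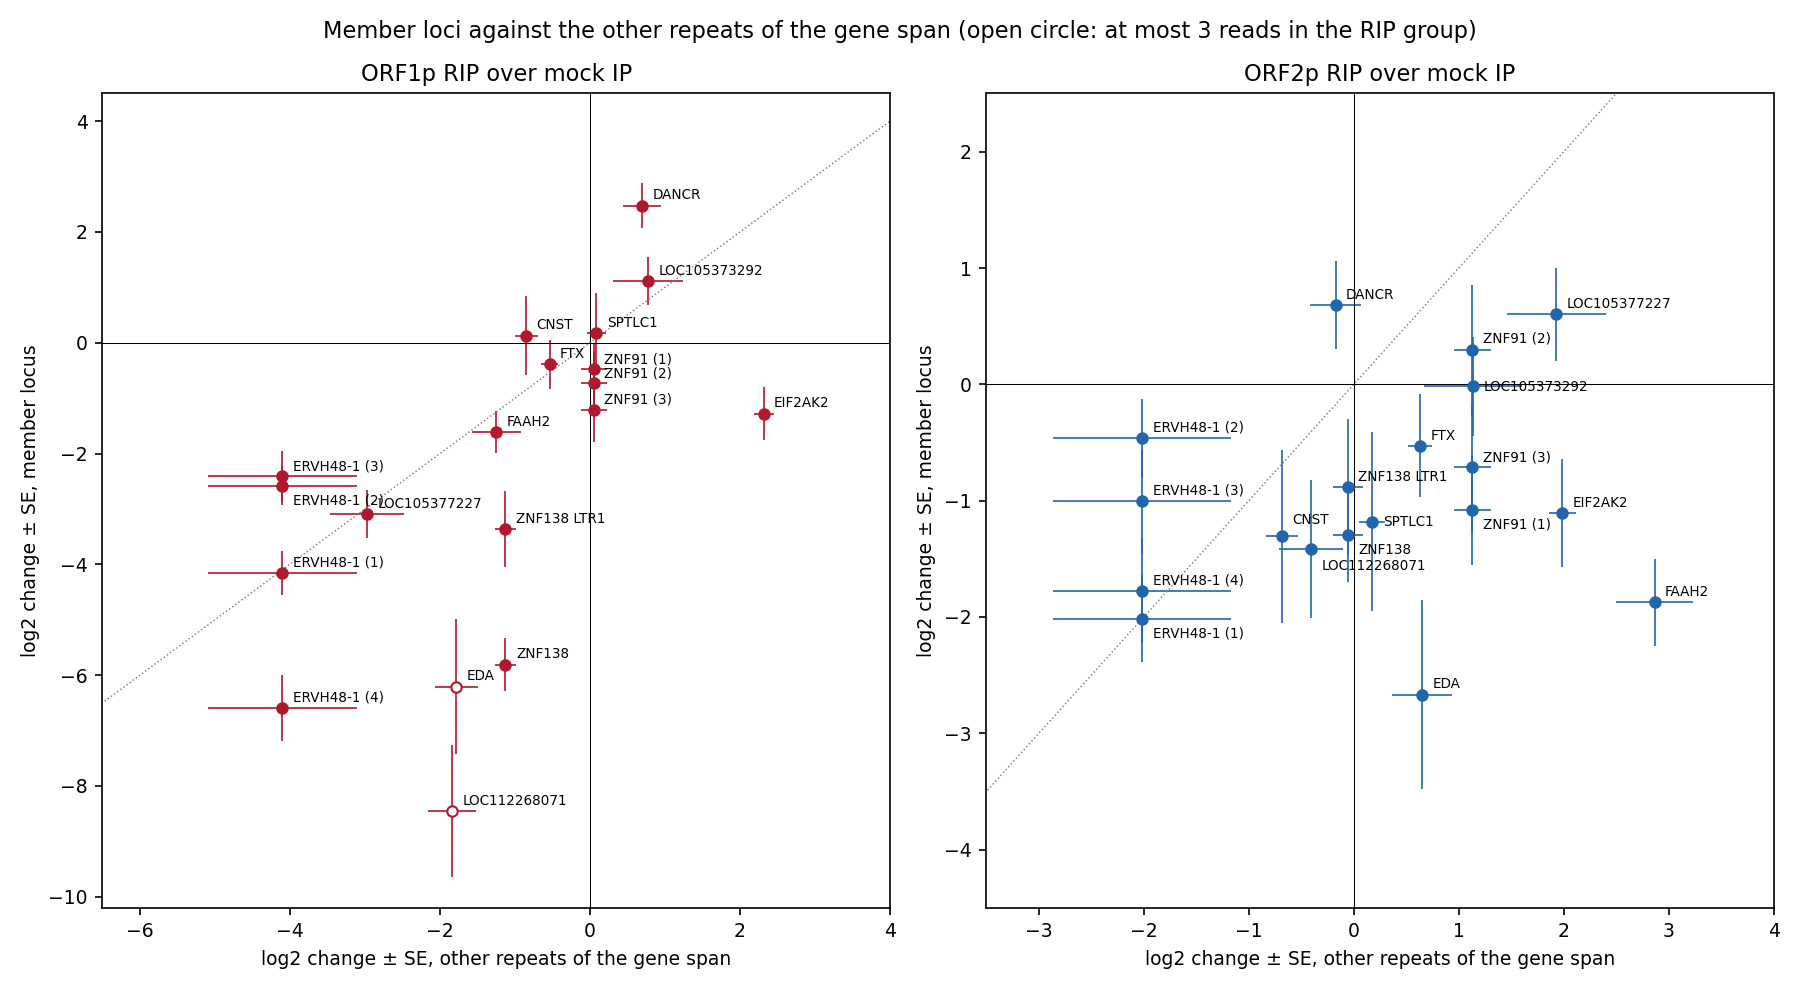
Fitted log2 difference of member loci (vertical axis) against that of the other repeats in the same gene span (horizontal axis), with SE, for ORF1p over mock and ORF2p over mock in panels with their own scales; the dotted line marks equal differences. With ORF1p the HERV-Fc1-int copy stands at -5.81 against -1.13 for the rest of ZNF138, the HERVFH19 copy at -1.28 against 2.32 for EIF2AK2, and the LTR21A copy at 2.48 against 0.70 for DANCR.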

How the data were processed

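RNA-seq and RNA immunoprecipitation libraries of N2102Ep cells were used (17 of 60 value columns; the other 43 carry no label of these samples and were not used). The authors deposited expected counts per repeat locus, made with STAR on hg38 per the submitters' processing notes; the counting program and its strand setting are not given in the sources used here. Values that are not whole numbers come from reads divided among loci, by a rule that is not given either. Levels, shares and differences of single copies depend on that rule. Reads of a repeat and of an overlapping gene cannot be told apart. Per the labels' protocols, RNA was DNase-treated and made into libraries with the Trio RNA-seq kit.

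The expected counts were rounded and summed by subfamily. edgeR 4.0.16 (quasi-likelihood, TMM, filterByExpr with a minimum count of 10, all 17 libraries, group as the only term) gave log2 differences with SE and Benjamini-Hochberg adjusted p over all features; p under 0.05 with 2-fold was called. Single loci used the subfamily library sizes. Exact two-sided permutation tests used log2 ratios with a pseudocount of 0.5. Starts were moved by 1 to count from 1. Gene spans and start windows come from RefSeq GRCh38.p14. No pair of replicates agreed within sampling noise. The steps were tested on simulated counts. The alternatives were DESeq2 1.42.0, other scalings and filters, a replicate block, either total RNA series, left-out libraries and left-out leading loci. All member subfamilies are named; of loci, the one with the highest mean CPM over the 4 groups in each subfamily and the 20 next highest of all members (32 loci). The members, lists and tests were chosen with earlier results of these data known.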

Additional observations from a re-analysis of the deposited data

Results flagged for a closer look

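In 10 of 120 groups of 4 to 6 libraries, 1 library lay far from the others by Dixon's test, which flags about 1 in 20 groups by chance. Of these, 4 were single ORF1p libraries with few reads where the others had 0: HERV-Fc1-int chr2:83874409 in replicate 4 (0.147 CPM), HERVH48-int chr7:102973617 in replicate 4 (0.114), HERVH48-int chrX:69699364 in replicate 1 (0.107) and HERV-Fc1_LTR2 chr14:41597690 in replicate 2 (0.124). HERV-Fc2-int as a subfamily stood at 0.497 CPM in ORF1p replicate 2 and at 0 in the other 3. HERVFH19-int chrX:72228335 was low in ORF1p replicate 4 (1.14 CPM, against 2.42 to 2.67) and high in ORF2p replicate 2 (2.70, against 0.856 to 1.17). HERVFH21-int was low in ORF2p replicate 2 (8.85, against 11.7 to 12.3). ORF2p replicate 3 was high at HERVFH19-int chr2:37132610 (2.62, against 1.51 to 1.65) and at HERV-Fc2-int chr11:5928773 (2.34, against 0.736 to 0.955).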

How the results depend on the processing

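The directions of HERV-Fc1-int and HERVH48-int for ORF1p over mock and over total RNA were the same under all alternatives run. Depth limited the HERV-Fc2 and LTR2 values, which rest on 0 to 4 ORF1p reads. Some signs turned. LTR21B over total RNA became -0.87 (ORF1p) and -0.092 (ORF2p) without its leading locus, which removes most of its reads. With the bl libraries alone, HERV-Fc1_LTR3 became 1.09 and HERVH48-int chrX:69699364 1.94 for mock over total RNA, and HERVH48-int chr19:23344909 1.13 for ORF2p over total RNA. With LTR7 in place of HERVH-int, the ORF2p over total RNA ratio of HERV-Fc1-int became -0.36 and that of LTR21A -0.63; the cause was not tested.

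Counts of called subfamilies became, for ORF2p over mock, 4 with these 2 groups only, 4 with library totals as scale and 0 without leading loci, for ORF2p over ORF1p 3 without leading loci, for ORF2p over total RNA 4 (b libraries), 5 (bl) and 0 (without leading loci), and for mock over total RNA 0 (2 groups only), 0 (b), 8 (bl) and 1 (without leading loci). Counts of called loci became, with a minimum count of 100, 12 for ORF1p over mock, 6 for ORF2p over mock, 9 for ORF2p over ORF1p, 12 for ORF1p over total RNA and 5 for ORF2p over total RNA. DESeq2 at that minimum gave 11, 8 and 13 for ORF1p over mock, ORF2p over ORF1p and ORF1p over total RNA. With library totals, which shift the median of all loci to -0.62 for ORF2p over mock, 19 were called for ORF2p over mock, 19 for ORF2p over total RNA and 4 for mock over total RNA. With the b libraries alone 22 were called for ORF2p over total RNA and 0 for mock over total RNA, and with bl alone 30 for mock over total RNA.

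Leaving out 1 library gave 35 to 43 loci and 5 to 6 subfamilies for ORF1p over mock, 5 to 11 and 1 to 2 for ORF2p over mock, 34 to 37 and 4 to 6 for ORF2p over ORF1p, 38 to 45 and 7 to 8 for ORF1p over total RNA, 10 to 13 and 2 to 3 for ORF2p over total RNA, and 1 to 19 and 0 to 7 for mock over total RNA. Mock replicate 1 gave the low ends for ORF2p over mock (5 and 1), and 6 loci were called without ORF2p replicate 2. For mock over total RNA, 1 locus and 0 subfamilies were called without mock replicate 1 or 3, 4 loci without mock replicate 2, and 19 and 15 loci (7 and 6 subfamilies) without total RNA 1 and 2. Without any one of total RNA 3 to 6, 3 loci were called, and without 3 or 4, 1 subfamily.

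Replicate numbers did not pair the libraries (correlations from -0.469 to 0.448). With the replicate block, the called subfamilies were 6, 2, 6, 6, 2 and 1 and the called loci 41, 9, 37, 44, 10 and 0, for ORF1p over mock, ORF2p over mock, ORF2p over ORF1p, and ORF1p, ORF2p and mock over total RNA.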
